A study of Mus musculus with 24 samples.

Results

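Mouse peritoneal macrophages that had received IL-4 (M2) were compared with control macrophages (M0), both without the immunoproteasome inhibitor ONX-0914, across all expressed genes. The M2 group was taken as the libraries labelled IL4 and the M0 group as those labelled Control. Each group held 4 libraries, so the levels compared came from 8 of the 24 libraries of the series, and 14692 genes had enough counts to be tested. The other libraries came from M2 cells given IL-4 with ONX-0914, from M1 cells given LPS and IFN-γ without or with ONX-0914, and from M0 cells given ONX-0914 alone. All groups shared the cell source. A replicate pooled macrophages of 2 to 3 mice to reach 50000 cells, and polyA RNA was sequenced in read pairs. The dose of IL-4, the length of treatment, and the strain, age and sex of the mice are given by no source used here, so the values describe 1 unstated time of exposure. Because the material was bulk RNA of pooled cells, fewer cells of a type and less RNA per cell cannot be told apart.

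IL-4 binds a receptor made of IL4RA with the common gamma chain, or of IL4RA with IL13RA1. The receptor's Janus kinases phosphorylate STAT6, which enters the nucleus and binds palindromic sites. Macrophages that have seen IL-4, in worm infection, allergy and tissue repair, express arginase 1, chitinase-like and resistin-like proteins and the mannose receptor, a state known as alternative activation. In the peritoneal cavity the resident macrophages are large, self-renewing cells that depend on GATA6 and can divide in response to IL-4.

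The promoters below are shown because STAT6 sites have a known form that can be read in the sequence of genes that rose. STAT6 prefers TTCNNNNGAA, in which N is any base, whereas most other STAT proteins prefer the shorter TTCNNNGAA. Each palindrome reads alike on both strands. The windows run from 250 bases before to 50 bases after the gene's start in RefSeq (GRCm38.p6), 5′ to 3′ on the gene's own strand, and capitals mark the motif. They were picked because they hold a match and are no sample of the genes that rose. Tmem26 (chr10:68723496-68723795, + strand), which encodes a membrane protein, held 2 matches to TTCNNNNGAA, at bases 24 to 33 and 210 to 219 of the window. Pdcd1lg2 (chr19:29410669-29410968, + strand), Retnla (chr16:48842359-48842658, + strand) and Psmb10 (chr8:105938343-105938642, − strand) held 1 each. The window of Cish (chr9:107296409-107296708, + strand), a feedback inhibitor of cytokine receptors, held 2 matches to TTCNNNGAA, at bases 251 to 259 and 262 to 270. That of Chil3 (chr3:106167515-106167814, − strand) held 1 match to TTCNNNGAA.
Tmem26: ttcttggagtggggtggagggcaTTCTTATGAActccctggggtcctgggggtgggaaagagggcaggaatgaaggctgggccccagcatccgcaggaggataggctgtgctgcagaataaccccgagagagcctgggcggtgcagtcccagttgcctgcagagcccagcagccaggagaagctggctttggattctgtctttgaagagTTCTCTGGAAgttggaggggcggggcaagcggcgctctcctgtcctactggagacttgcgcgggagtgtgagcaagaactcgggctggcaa
Pdcd1lg2: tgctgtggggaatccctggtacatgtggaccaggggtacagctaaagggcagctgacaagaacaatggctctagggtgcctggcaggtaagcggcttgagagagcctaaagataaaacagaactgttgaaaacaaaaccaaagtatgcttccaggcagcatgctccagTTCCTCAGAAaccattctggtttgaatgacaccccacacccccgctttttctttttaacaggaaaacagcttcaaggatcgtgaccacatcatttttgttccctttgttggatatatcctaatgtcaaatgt
Retnla: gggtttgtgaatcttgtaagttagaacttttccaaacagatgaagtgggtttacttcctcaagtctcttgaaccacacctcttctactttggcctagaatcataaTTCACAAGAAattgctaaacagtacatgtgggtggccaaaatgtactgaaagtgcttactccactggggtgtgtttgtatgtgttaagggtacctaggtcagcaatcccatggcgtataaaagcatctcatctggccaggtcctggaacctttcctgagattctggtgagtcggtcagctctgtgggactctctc
Psmb10: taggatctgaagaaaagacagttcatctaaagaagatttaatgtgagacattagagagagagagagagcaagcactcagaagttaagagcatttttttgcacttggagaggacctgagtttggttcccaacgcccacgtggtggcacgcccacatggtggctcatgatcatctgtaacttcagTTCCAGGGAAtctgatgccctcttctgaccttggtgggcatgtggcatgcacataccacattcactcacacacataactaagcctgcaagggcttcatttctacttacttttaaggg
Cish: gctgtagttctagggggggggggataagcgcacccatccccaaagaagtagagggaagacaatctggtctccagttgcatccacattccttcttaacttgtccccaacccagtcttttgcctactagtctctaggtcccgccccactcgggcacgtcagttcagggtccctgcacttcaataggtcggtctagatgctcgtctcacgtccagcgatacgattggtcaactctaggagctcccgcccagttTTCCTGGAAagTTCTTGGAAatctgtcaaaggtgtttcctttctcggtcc
Chil3: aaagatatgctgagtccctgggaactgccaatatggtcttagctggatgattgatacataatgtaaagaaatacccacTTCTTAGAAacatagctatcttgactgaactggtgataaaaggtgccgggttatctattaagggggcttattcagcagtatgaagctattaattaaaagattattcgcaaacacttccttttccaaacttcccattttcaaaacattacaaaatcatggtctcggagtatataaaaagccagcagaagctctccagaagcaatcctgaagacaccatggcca

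Across the genome TTCNNNNGAA was found in 6.95% of 32851 promoter windows, and TTCNNNGAA in 8.30%. At least 1 RefSeq window was matched by symbol for 10483 of the tested genes. A gene with several windows was counted if any of them held the motif. Such genes had more chances of a match, so the shares of genes below are unlike the shares of windows above. Among those not called different between M2 and M0, 417 of 6426 (6.49%) held TTCNNNNGAA. The share was 131 of 1739 (7.53%) among genes that rose by a log2 change under 1, 25 of 225 (11.1%) from 1 to 2, 8 of 60 (13.3%) from 2 to 3 and 13 of 58 (22.4%) at 3 or more. It was 19 of 283 (6.71%) among genes that fell by a log2 change of at least 1. TTCNNNGAA was held by 15 of the 58 genes (25.9%) that rose by 3 or more and by 8.14% of those not called. Matches of this kind were not tested and are no evidence of binding.

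Replicates lay close together. M2 libraries held 19066090 to 21486705 counts and M0 libraries 18480233 to 21821483. The median coefficient of variation was 5.54% between M2 libraries and 6.14% between M0 libraries, over the 9442 genes with at least 5 CPM in both groups. Correlations of log2 CPM were 0.991 to 0.992 within the groups and 0.973 to 0.976 between them. Levels below are in CPM, counts scaled to a common library size by the TMM method, and a gene was called at an adjusted p under 0.05 in edgeR's quasi-likelihood test of log2(M2 over M0), with Benjamini-Hochberg adjustment over all 14692 genes. Since the labels describe the replicates as pools of mice, the p-values measure the spread between such pools. That spread was estimated over all 24 libraries, those of M1 and ONX-0914 included. Genes called between M2 and M0 numbered 5315 in this way, 5996 with the M2 and M0 libraries fitted alone and 6348 without M1 replicate 2.

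The cells carried the defining macrophage markers in both groups. Itgam (CD11b) stood at 158 CPM in M2 and 104 CPM in M0, and the summed level of 10 macrophage markers at 13516 ± 553 CPM in M2 and 13553 ± 941 CPM in M0 (SD, n = 4 each). Within that list Csf1r, the receptor for macrophage colony-stimulating factor, was at 744 CPM in M2 and 384 CPM in M0, and Cd14, a co-receptor for bacterial lipopolysaccharide, at 37.5 CPM in M2 and 108 CPM in M0. The 8 markers of large peritoneal macrophages summed to 1158 ± 35.1 CPM in M2 and 918 ± 27.5 CPM in M0 (exact permutation test, two-sided, p = 0.0286, the smallest that 4 against 4 libraries allow, and 0.0952 after adjustment over the 10 marker lists). Gata6 itself was at 30.2 CPM in M2 and 26.5 CPM in M0 and was not called.

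Levels of markers of other cells differed by cell type, and some moved. T and NK cell markers summed to 986 CPM in M2 and 1025 CPM in M0, of which Il7r alone made 983 and 1021 CPM, while Cd3d, Cd3e, Cd3g, Trac and Nkg7 were each under 0.2 CPM in both groups. The 13 B cell markers summed to 121 ± 4.50 CPM in M2 and 114 ± 4.29 CPM in M0 (exact permutation test, two-sided, p = 0.114), of which Cd22 alone made 101 and 85.6 CPM. Of the 11 that were tested 5 fell, among them Cd79a (1.12 CPM in M2, 2.46 CPM in M0) and Ighm (9.21 CPM in M2, 15.4 CPM in M0), and 1 rose, Cd22. Neutrophil markers summed to 70.9 ± 0.979 CPM in M2 and 53.9 ± 3.83 CPM in M0 (exact permutation test, adjusted p = 0.0952), mostly Csf3r, and S100a9, Ly6g and Retnlg had no count in any of the 8 libraries. Markers of mesothelial cells and fibroblasts summed to 793 ± 85.1 CPM in M2 and 804 ± 101 CPM in M0. That is no small sum beside the summed markers of large peritoneal macrophages. Sums over different genes do not give numbers of cells, so the share of these cells was not measured. Of the 12 members 4 rose and 2 fell. Among the rises the keratin genes Krt8 and Krt18 reached 3.61 and 5.22 CPM in M2, against 0.488 and 0.727 CPM in M0. Both are a small part of the sum, for which no difference was found (exact permutation test, two-sided, p = 0.857). Eosinophil-defining Epx, Prg2 and Prg3 had no count. The part of these cells in the results below was not tested.

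IL-4-treated cells differed from control cells in many genes, most of them by small amounts, and the large changes were rises. Of 14692 genes 5315 were called (36.2%), 2744 higher in M2 (18.7%) and 2571 lower (17.5%), with a median log2 change of 0.01 over all tested genes. A log2 change of at least 1 was reached by 930 of them (6.33% of genes tested), 529 rises (3.60%) and 401 falls (2.73%), of at least 3 by 82 rises and 6 falls, and of at least 5 by 27 rises and no fall. All 4 M2 libraries lay above all 4 M0 libraries for 2960 genes (20.1%) and below them for 2606 (17.7%). Counts of list members given below are to be read beside these shares of all genes.

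**Figure D1:**
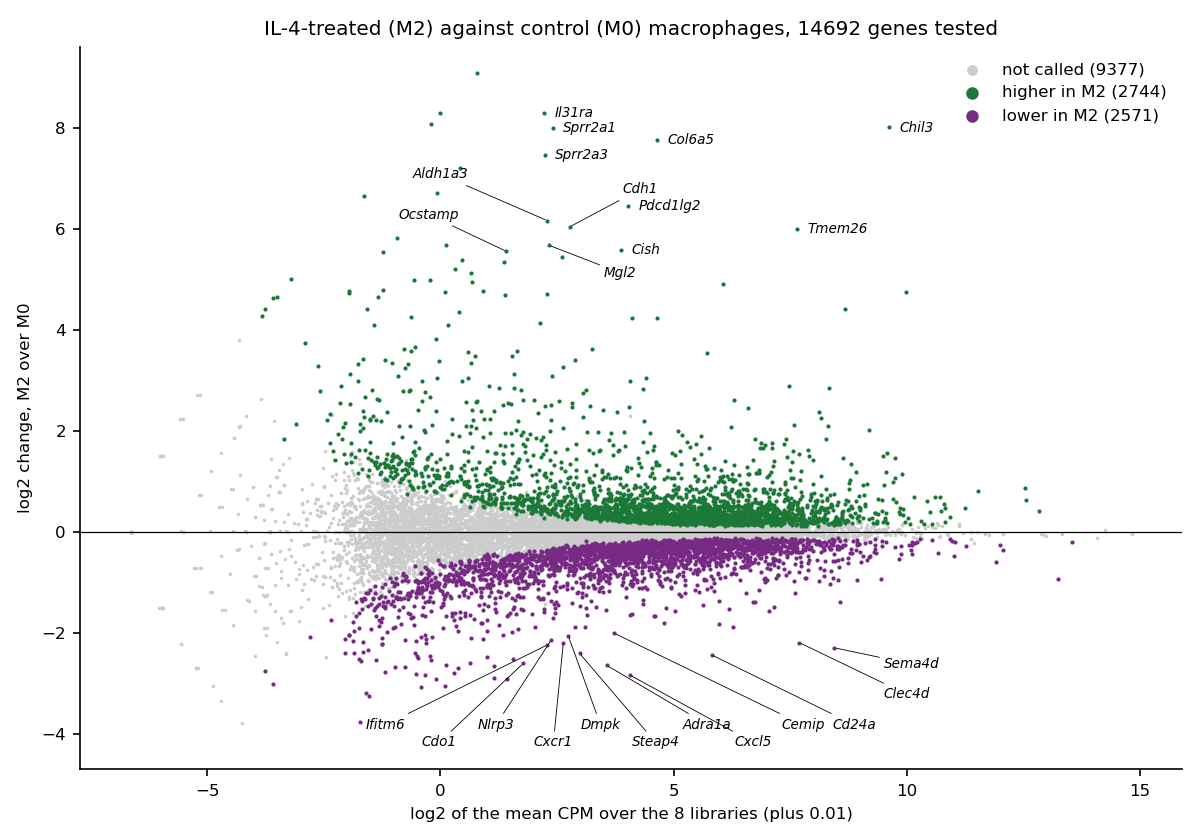
Each point is 1 of 14692 tested genes: the horizontal axis is the log2 of its mean CPM over the 8 libraries (plus 0.01) and the vertical axis its fitted log2 change, M2 over M0. Green genes were called higher in M2 (2744), purple genes lower (2571) and grey genes were not called; the 12 largest rises and 12 largest falls with at least 5 CPM in the higher group are named, and only rises reach beyond a change of 5 in either direction.

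The 12 genes that rose most had low levels in control cells, with means of 6.13 CPM or less. Chil3 (chr3:106147554-106167564), which encodes the chitinase-like protein Ym1, had 1590, 1617, 1537 and 1503 CPM in M2 and 7.48, 4.85, 5.51 and 6.38 CPM in M0, a log2 change of 8.01 (SE 0.11, adjusted p = 2.05e-27). Col6a5 (chr9:105856078-105960643), a chain of collagen VI, had 41.8, 56.5, 55.3 and 44.0 CPM in M2 and 0.0482, 0.0981, 0.386 and 0.331 CPM in M0 (log2 change 7.76, SE 0.25, adjusted p = 2.45e-19). Tmem26 (chr10:68723646-68782650) had 380, 401, 417 and 369 CPM in M2 and 5.93, 5.59, 6.47 and 6.54 CPM in M0 (log2 change 5.99, SE 0.10, adjusted p = 9.79e-26). The groups of these 3 genes were far apart, with no M0 library near an M2 library.

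Il31ra (chr13:112519898-112594360), the receptor subunit for the itch cytokine IL-31, had 8.62, 9.70, 10.2 and 8.63 CPM in M2, against no count in 3 M0 libraries and 0.0828 CPM in the last. The summed counts, 796 in M2 and 2 in M0, gave a ratio of 399.7 (95% counting interval 110.3 to 3306). Aldh1a3, an enzyme that makes retinoic acid, had 7.94, 9.90, 11.2 and 9.40 CPM in M2 and 0.145, 0.0490, 0.0966 and 0.207 CPM in M0 (log2 change 6.16, SE 0.27). Pdcd1lg2, which encodes the PD-1 ligand PD-L2, averaged 32.2 ± 3.12 CPM in M2 and 0.365 ± 0.0981 CPM in M0 (log2 change 6.45, SE 0.17). The remaining members of the 12 largest rises were Sprr2a1, Sprr2a3, Cdh1, Mgl2, Cish and Ocstamp, with log2 changes of 5.55 to 8.0. For the small proline-rich proteins Sprr2a1 and Sprr2a3, which are near copies of each other, the split of reads is uncertain.

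Mrgprg, an orphan receptor gene, had 2.16, 1.90, 2.17 and 1.69 CPM in M2 and no count in any M0 library. Over the group its 170 counts in M2 were at least 56.9-fold more than the 3 counts that a group with none allows. Chil4, a close relative of Chil3, likewise had 293 counts in M2 and none in M0 (at least 98.1-fold), and how reads shared with the far more abundant Chil3 were counted is not given in the sources used here. Il13ra2, the IL-13 receptor chain that acts as a decoy, had 2.34, 2.90, 1.91 and 1.25 CPM in M2 and 0.0482, 0, 0.0966 and 0 CPM in M0. Its 179 counts in M2 against 3 in M0 gave a ratio of 59.9 (95% counting interval 20.2 to 293).

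**Figure D2:**
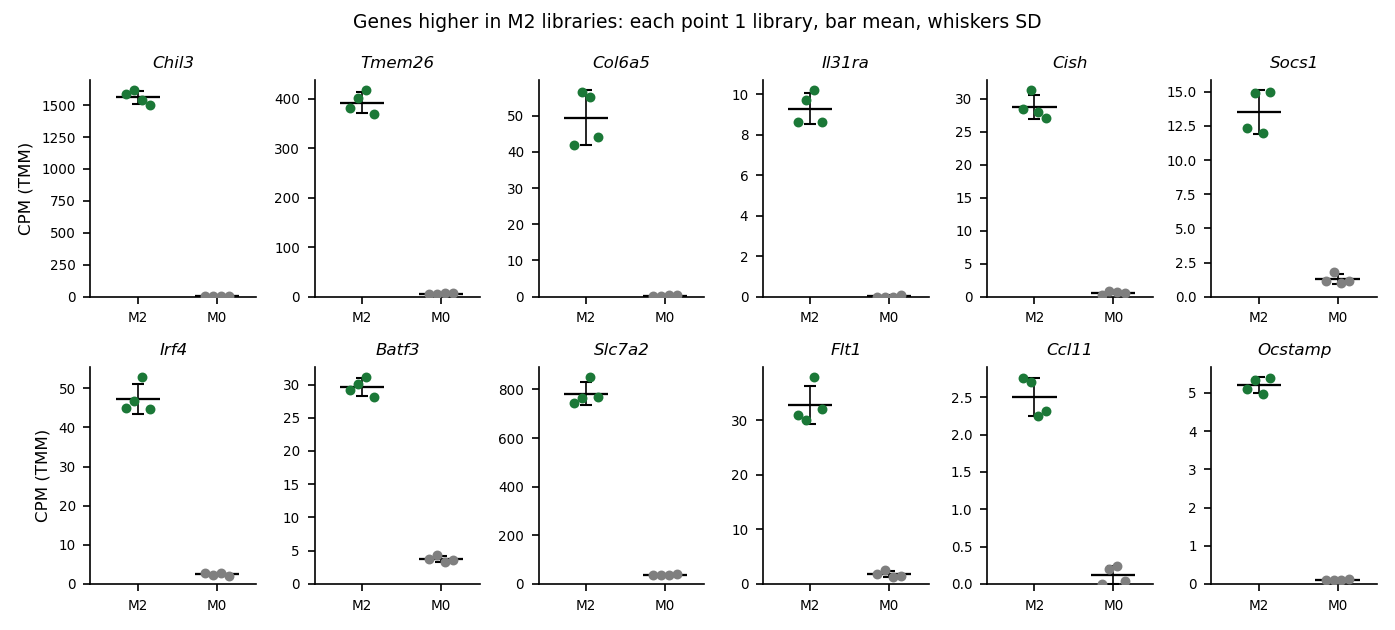
CPM (vertical axes, from 0) of 12 genes that were higher in M2, 1 panel a gene, with M2 left and M0 right; points are libraries, bars means and whiskers SD (n = 4). In each panel the 4 M2 libraries lie above the 4 M0 libraries; Chil3 averages 1562 CPM in M2 and 6.05 CPM in M0.

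The receptor gene Il4ra was not called and Stat6 fell slightly, while the inhibitors Cish, Socs1 and Socs2 rose. Of 14 tested genes of the IL-4 receptor and its signalling, 4 rose and 4 fell, with a median log2 change of −0.01 beside 0.01 over all genes. Stat6 was at 193 ± 5.13 CPM in M2 and 220 ± 5.15 CPM in M0 (log2 change −0.19, SE 0.05, adjusted p = 0.0028). Il4ra stood at 63.5 CPM in M2 and 55.6 CPM in M0 and was not called (adjusted p = 0.0571, but 0.0199 without M1 replicate 2 and 0.00999 with the M2 and M0 libraries fitted alone). Il13ra1, its partner for IL-13, fell to 32.7 ± 2.53 CPM in M2, against 48.9 ± 1.64 CPM in M0 (log2 change −0.58). Jak2 rose to 107, 107, 111 and 104 CPM in M2, against 51.3, 50.3, 52.9 and 56.5 CPM in M0 (log2 change 1.02, SE 0.08). The adaptor gene Irs1 was at 0.717 CPM in M2 and 0.315 CPM in M0 (log2 change 1.14), a call that was lost without M2 replicate 1 or 3 or M0 replicate 1, 2 or 3 (adjusted p of 0.0697 to 0.109). Inside the receptor list, then, the rises with no overlap between groups and a log2 change of at least 1 were those of Jak2 and Il13ra2.

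Of 9 feedback regulators of cytokine signalling, 4 rose and 1 fell (median log2 change 0.30). Cish had 28.4, 31.3, 28 and 27.2 CPM in M2 and 0.289, 0.834, 0.773 and 0.497 CPM in M0 (log2 change 5.58, SE 0.19, adjusted p = 9.69e-19). Socs1, which blocks Janus kinases, had 12.3, 14.9, 12 and 15 CPM in M2 and 1.16, 1.81, 1.01 and 1.16 CPM in M0 (log2 change 3.39, SE 0.18). Its relative Socs2 was at 6.86 ± 1.29 CPM in M2 and 1.12 ± 0.168 CPM in M0 (log2 change 2.61). Socs3 rose by only 0.30, and the phosphatase gene Ptpn6 (SHP-1) fell to 97.2 ± 3.10 CPM in M2, against 160 ± 5.37 CPM in M0 (log2 change −0.72). The SOCS family thus differed by member, with Cish and Socs1 many times above their M0 level and Socs3 hardly above it.

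Most transcription regulators that IL-4 is known to act through rose. Of 15 on the list 12 rose and none fell, with a median log2 change of 1.07. Irf4 (chr13:30749226-30766976), which works with STAT6 on M2 genes, had 44.9, 46.8, 52.9 and 44.7 CPM in M2 and 2.70, 2.40, 2.90 and 2.11 CPM in M0 (log2 change 4.23, SE 0.11, adjusted p = 6.42e-21). Batf3, a partner of IRF proteins, had 29.1, 30.0, 31.2 and 28.2 CPM in M2 and 3.71, 4.41, 3.28 and 3.60 CPM in M0 (log2 change 2.98, SE 0.15). Nfil3, another basic leucine zipper protein, averaged 54.7 ± 2.60 CPM in M2 and 13.6 ± 0.647 CPM in M0 (log2 change 2.0). None of these groups overlapped. Smaller rises were those of Ppargc1b (1.73), Klf4 (1.60), the lipid sensor Pparg (1.23), Egr2 (1.19), Myc (1.07) and Bhlhe40 (1.03), all as log2 changes.

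Lineage factors of macrophages moved both ways, 6 of 12 up and 4 down (median log2 change 0.21). The basic leucine zipper gene Maf fell by 0.65 on the log2 scale, and Irf8, needed for monocyte development, fell to 124 ± 3.03 CPM in M2, against 182 ± 7.61 CPM in M0 (log2 change −0.56).

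The effectors of alternative activation were, of 43 lists, the one furthest from the median of all genes. The list holds genes known for IL-4, and all lists were chosen with earlier results of these data known. Its rank is therefore no test. Of 24 tested members 21 rose and 2 fell, with a median log2 change of 2.38. Slc7a2, a transporter that brings in arginine, had 743, 767, 851 and 767 CPM in M2 and 36.5, 35.4, 36.0 and 39.5 CPM in M0 (log2 change 4.41, SE 0.07, adjusted p = 9.79e-26). Flt1, a receptor for VEGF, had 30.9, 30.0, 37.8 and 32.1 CPM in M2 and 1.79, 2.50, 1.35 and 1.37 CPM in M0 (log2 change 4.23, SE 0.15). The protein-crosslinking enzyme gene Tgm2 averaged 473 ± 36.4 CPM in M2 and 99 ± 3.37 CPM in M0 (log2 change 2.26), and Ch25h, which makes 25-hydroxycholesterol, 8.01 ± 1.22 CPM in M2 and 1.42 ± 0.251 CPM in M0 (2.50). Retnla, a resistin-like protein and a classical product of IL-4-treated mouse macrophages, was scarce even after its rise, with 5.83, 5.95, 5.03 and 4.49 CPM in M2 and 0.772, 0.441, 0.435 and 0.745 CPM in M0 (3.13, SE 0.29).

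The 2 members that fell were F13a1, the clotting factor XIII A chain, with 1.01, 1.05, 1.95 and 1.98 CPM in M2 and 4.82, 4.02, 4.44 and 4.14 CPM in M0 (log2 change −1.53, SE 0.22), and Il1rn, the IL-1 receptor antagonist (log2 change −0.61). F13a1 is a common marker of IL-4-treated human monocytes. Ccl22, at 4.21 CPM in M2 and 3.01 CPM in M0, was not called (adjusted p = 0.116), but was without M2 replicate 3 (0.0293).

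Chemokine genes moved both ways, with both eotaxins among those that rose. Of 23 tested chemokines 7 rose and 5 fell (8 with no filter on low counts), at a median log2 change of 0.16. Ccl11 (eotaxin-1) had 2.75, 2.70, 2.25 and 2.31 CPM in M2 and 0, 0.196, 0.241 and 0.0414 CPM in M0 (log2 change 4.35, SE 0.39), and Ccl24 (eotaxin-2) averaged 1.67 ± 0.222 CPM in M2 and 0.199 ± 0.0662 CPM in M0 (3.04). Both draw eosinophils through CCR3. The monocyte attractants Ccl9, Ccl7 and Ccl2 rose by 2.08, 1.95 and 1.35, to 121, 35.9 and 64.9 CPM in M2, against 28.6, 9.28 and 25.5 CPM in M0. Lower in M2 were Ccl3 (MIP-1α), with 12.9, 11.3, 12.1 and 13.2 CPM in M2 and 44.8, 43.4, 41.2 and 43.6 CPM in M0 (log2 change −1.81, SE 0.11), and the interferon-induced Cxcl10 (log2 change −2.08). Neutrophil-attracting Cxcl5 (chr5:90759360-90761624), which was on no list, had the largest fall of all genes above 5 CPM, with 4.40, 4.80, 3.99 and 3.23 CPM in M2 and 32.0, 25, 24 and 36.5 CPM in M0 (log2 change −2.84, SE 0.20, adjusted p = 3.67e-12).

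Chemokine receptors mostly fell, 6 of 11 against 2 that rose, at a median log2 change of −0.79. Cxcr1, a receptor for neutrophil-attracting chemokines, had 2.39, 1.90, 2.25 and 2.31 CPM in M2 and 10.2, 9.51, 10.4 and 10.6 CPM in M0 (log2 change −2.20, SE 0.14). Ccrl2, which binds chemerin without signalling, fell to 67.0 ± 3.0 CPM in M2, against 199 ± 8.73 CPM in M0 (−1.57). Neither gene's groups overlapped.

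Receptors for particles and microbes changed member by member. Among 6 IgG Fc receptor genes the inhibitory receptor rose and 4 others fell (median log2 change −0.43). Fcgr2b (chr1:170958617-170976547), the inhibitory receptor, had 932, 945, 938 and 924 CPM in M2 and 231, 227, 233 and 234 CPM in M0 (log2 change 2.01, SE 0.06, adjusted p = 1.99e-19). Fcgr4 (chr1:171018920-171029761), an activating receptor, had 30.0, 35.4, 30.6 and 33.8 CPM in M2 and 60.0, 58.8, 61.4 and 52.3 CPM in M0 (−0.84, SE 0.09). The signalling chain shared by activating receptors, Fcer1g, was at 373 ± 28.7 CPM in M2 and 500 ± 29.6 CPM in M0 (−0.42). The high-affinity receptor Fcgr1 fell by 0.49 on the log2 scale, although its libraries overlapped between groups and the call was lost without M0 replicate 2 or 3 (adjusted p = 0.102 and 0.0645). Fcgr3, another activating receptor, stood at 387 ± 23.6 CPM in M2 and 431 ± 16.4 CPM in M0 and was not called (log2 change −0.16, adjusted p = 0.0949), but was called lower without M2 replicate 2 (0.0415), with a filter of 1 CPM (0.04) and with the M2 and M0 libraries fitted alone (0.00822). Fcgr2b was thus the 1 member of the list called above its M0 level.

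Of 17 Toll-like receptors and adaptors 1 rose (2 without M0 replicate 2) and 5 fell, at a median log2 change of −0.13. Tlr8 had 180, 194, 175 and 171 CPM in M2 and 52.4, 53.6, 52.6 and 53.9 CPM in M0 (log2 change 1.76, SE 0.11). Tlr2, the receptor for bacterial lipoproteins, had 10.2, 11.4, 9.79 and 12.4 CPM in M2 and 30.8, 29.2, 28.2 and 30.4 CPM in M0 (−1.44, SE 0.11). Cd14 and the nucleic acid sensors Tlr9 and Tlr13 also fell, by 1.52, 1.43 and 0.76 on the log2 scale. The promoter window of Tlr8 held 1 match to TTCNNNNGAA and 1 to TTCNNNGAA.

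Of 16 C-type lectin receptors 7 rose and 5 fell (median log2 change 0.11). Clec7a, the β-glucan receptor dectin-1, had 1352, 1356, 1243 and 1286 CPM in M2 and 635, 580, 598 and 562 CPM in M0 (log2 change 1.14, SE 0.15). Clec4e, the mycobacterial glycolipid receptor mincle, had 31.7, 37.9, 27.4 and 33.2 CPM in M2 and 135, 116, 113 and 121 CPM in M0 (−1.90, SE 0.20), and its partner Clec4d 79.5, 72.9, 68.4 and 76.1 CPM in M2 and 379, 325, 327 and 330 CPM in M0 (−2.20, SE 0.08). Both groups were cleanly separated in each of these lectins. Among scavenger and efferocytosis receptors 3 of 22 rose and 8 fell (median −0.08); Olr1, a receptor for oxidized LDL, rose by 3.26 to 11.2 ± 1.26 CPM in M2, against 1.16 ± 0.233 CPM in M0, and Cd36 by 0.81 to 3766 CPM in M2, against 2149 CPM in M0. Gas6, a ligand that bridges dying cells to TAM receptors, fell by 1.16.

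Complement genes leaned downward, 9 of 20 against 4 that rose (median log2 change −0.22). C5ar1, the receptor for the anaphylatoxin C5a, fell to 16.5 ± 2.09 CPM in M2, against 48.8 ± 4.01 CPM in M0 (−1.56), and properdin, Cfp, rose by 0.91. Of 9 genes of the phagocyte NADPH oxidase and superoxide dismutases 2 rose and 4 fell (median −0.02). Ncf1 (p47phox) had 78.9, 73.6, 69.4 and 78.5 CPM in M2 and 213, 204, 201 and 224 CPM in M0 (log2 change −1.49, SE 0.05), and the catalytic chain Cybb averaged 477 ± 12.2 CPM in M2 and 913 ± 49.7 CPM in M0 (−0.94). The oxidase subunit Ncf4 rose to 165 ± 4.02 CPM in M2, against 148 ± 3.68 CPM in M0 (0.16), a call that was lost with no filter on low counts and with a filter of 1 CPM (adjusted p = 0.0987 and 0.0539).

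**Figure D3:**
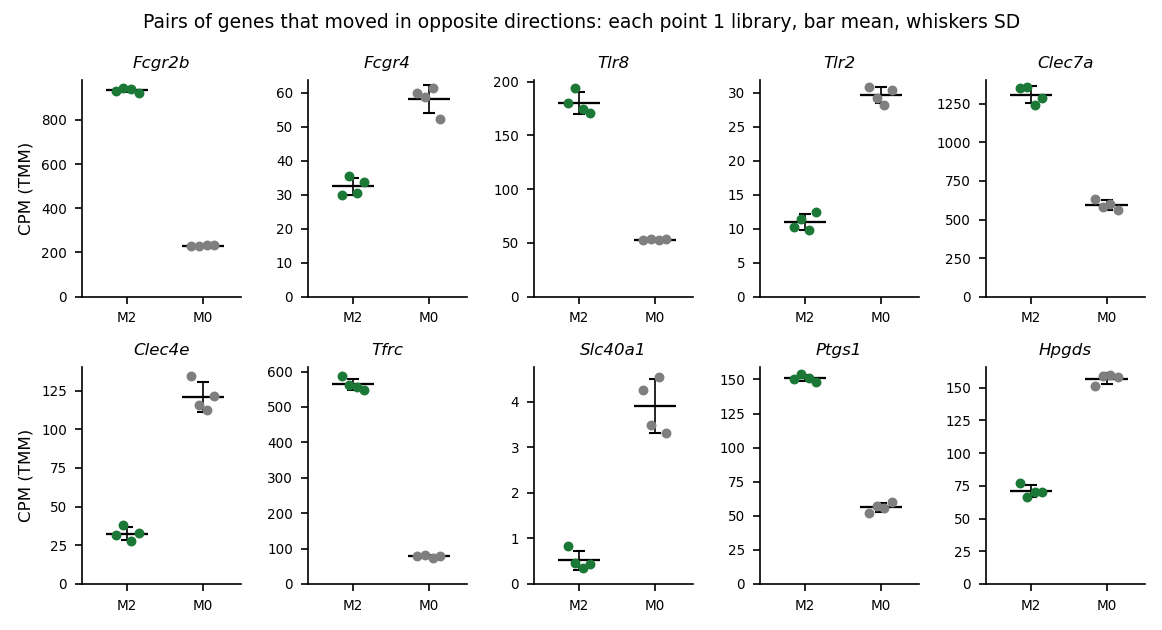
CPM (vertical axes, from 0) of 10 genes shown in pairs that moved apart, 1 panel a gene, with M2 left and M0 right; points are libraries, bars means and whiskers SD (n = 4). Fcgr2b, Tlr8, Clec7a, Tfrc and Ptgs1 have all 4 M2 libraries above the M0 libraries, and Fcgr4, Tlr2, Clec4e, Slc40a1 and Hpgds have them below.

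The receptor that imports iron rose and the exporter of iron fell. Of 17 tested iron-handling genes 3 rose and 7 fell (median log2 change −0.04), beside 18.7% and 17.5% of all genes. Tfrc (chr16:32608920-32632794), the transferrin receptor that takes up iron, had 587, 563, 558 and 549 CPM in M2 and 79.4, 81.7, 71.9 and 79.5 CPM in M0 (log2 change 2.85, SE 0.12, adjusted p = 9.27e-17). Slc40a1 (chr1:45908068-45926523), the iron exporter ferroportin, had 0.826, 0.450, 0.347 and 0.434 CPM in M2 and 4.25, 3.48, 4.54 and 3.31 CPM in M0 (−2.90, SE 0.26). Slc11a1, a metal transporter of the phagosome, fell to 337 ± 16.3 CPM in M2, against 521 ± 12.4 CPM in M0 (−0.63). The transferrin receptor and ferroportin thus changed in opposite directions with no overlap of libraries.

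Genes of biosynthesis rose in small steps. All 26 ribosome biogenesis and MYC-linked genes were called higher in M2, with log2 changes of 0.15 to 1.07 and a median of 0.47. Nop58, a core protein of snoRNPs, was at 43.9 ± 2.67 CPM in M2 and 24.4 ± 1.36 CPM in M0 (0.84), and Myc at 32.4 ± 2.98 CPM in M2 and 15.5 ± 2.02 CPM in M0 (1.07). Of 25 amino acid transporters and tRNA synthetases 17 rose and 3 fell (median 0.40), led after Slc7a2 by the glutamine carrier Slc1a5 (1.18) and the leucine carrier Slc7a5 (1.08), while the leucine carrier Slc43a2 fell by 0.99. Of 36 genes of ER translocation, N-glycosylation and vesicle export 23 rose and 1 fell (2 without M2 replicate 1, 3 without M1 replicate 2), at a median of 0.19, among them the oligosaccharyltransferase subunit Stt3b, at 315 ± 5.08 CPM in M2 and 206 ± 4.51 CPM in M0 (0.61).

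Arginine and polyamine genes extended the rise of Arg1 and Slc7a2. Of 17 tested members 10 rose and 3 fell (median log2 change 0.36). Odc1, the rate-limiting enzyme of polyamine synthesis, had 86.0, 91.2, 86.9 and 86.9 CPM in M2 and 51.2, 47.6, 54.5 and 43.9 CPM in M0 (0.83, SE 0.07), and the spermidine synthase gene Srm rose by 0.72. Smox, which oxidizes spermine, fell to 8.95 ± 1.01 CPM in M2, against 15.9 ± 1.49 CPM in M0 (−0.83). The number that fell was 1 without M0 replicate 1 and 5 without M1 replicate 2. Nos2, which draws on the same arginine to make nitric oxide, had 1 count in the M2 libraries together and 4 in the M0 libraries together.

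Mitochondrial genes encoded in the nucleus leaned up. Of 29 respiratory chain genes 12 rose and none fell (median log2 change 0.14), led by cytochrome c, Cycs, at 74.1 ± 5.62 CPM in M2 and 46.9 ± 3.57 CPM in M0 (0.66). In the TCA cycle 9 of 26 rose (15 without M1 replicate 2) and 2 fell, at a median of 0.12, led by the isocitrate dehydrogenase subunit Idh3a at 51.0 ± 1.52 CPM in M2 and 29.2 ± 3.03 CPM in M0 (0.80). The share of counts on mitochondrial genes was 1.68% in M2 and 1.73% in M0 (exact permutation test, two-sided, p = 0.0857). Glycolysis was mixed, with 8 of 25 genes up and 8 down (median 0.06). Hk2, which commits glucose to glycolysis, had 147, 152, 157 and 150 CPM in M2 and 71.3, 64.5, 65.1 and 68.6 CPM in M0 (1.17, SE 0.07), Ldha rose by 1.07, and Pdk1, which restrains pyruvate entry into mitochondria, fell to 19.1 ± 1.08 CPM in M2, against 30.3 ± 1.63 CPM in M0 (−0.66).

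Genes of cholesterol efflux and of the sterol receptor LXR fell more often than they rose, and cholesterol synthesis moved no more often than other genes. Of 10 tested genes of cholesterol efflux and LXR 2 rose and 6 fell (median log2 change −0.21). This list mixes targets of LXR with the receptor's own genes, Nr1h2 and Nr1h3. Abca1, the cholesterol exporter, had 56.1, 57.2, 63.2 and 55.6 CPM in M2 and 140, 157, 145 and 164 CPM in M0 (−1.38, SE 0.09), and Mylip, which degrades the LDL receptor, averaged 3.14 ± 0.427 CPM in M2 and 11.6 ± 0.750 CPM in M0 (−1.88). In cholesterol synthesis 4 of 23 rose (7 without M1 replicate 2) and 3 fell, at a median of 0.09, beside 18.7% and 17.5% of all genes, and the largest change was in Dhcr7, the last step, at 134 ± 5.47 CPM in M2 and 55.1 ± 3.24 CPM in M0 (1.28). Abcg1, the other cholesterol exporter, rose by 0.38, so the pair of exporters did not move together.

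Both cyclooxygenase genes, at the head of prostanoid synthesis, rose. Of 20 tested eicosanoid genes 11 rose and 3 fell (median log2 change 0.50). Ptgs1, the constitutive cyclooxygenase, had 151, 154, 151 and 148 CPM in M2 and 52.0, 57.5, 55.6 and 59.9 CPM in M0 (1.42, SE 0.06, adjusted p = 3.67e-16). Ptgs2, the inducible cyclooxygenase, had 14, 15.9, 14.8 and 13.2 CPM in M2 and 1.88, 1.42, 2.03 and 3.11 CPM in M0 (2.75, SE 0.16). Thromboxane synthase, Tbxas1, was at 199 ± 7.64 CPM in M2 and 80.9 ± 7.34 CPM in M0 (1.30). The prostaglandin D synthase gene Hpgds went the other way, with 77.0, 66.2, 70.6 and 69.9 CPM in M2 and 151, 159, 160 and 158 CPM in M0 (−1.15, SE 0.08).

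Secreted proteins and surface proteins of tissue remodelling also changed. Of 21 matrix metalloproteinases, ADAMs and inhibitors 10 rose and 3 fell (median log2 change 0.34); Timp1, an inhibitor of metalloproteinases, averaged 27.8 ± 1.99 CPM in M2 and 5.04 ± 0.671 CPM in M0 (2.47), and Mmp12, the macrophage elastase, 7323 ± 233 CPM in M2 and 4722 ± 110 CPM in M0 (0.63). Of 21 genes of coagulation, fibrinolysis and matrix 9 rose and 4 fell (median 0.03), led by coagulation factor F10 at 307 ± 5.91 CPM in M2 and 106 ± 6.61 CPM in M0 (1.53). Growth factors were 4 up and 7 down of 19 (median −0.11). Hbegf, a ligand of the EGF receptor, rose by 2.27 to 13.7 ± 0.813 CPM in M2, against 2.84 ± 0.444 CPM in M0, and Igf1 by 1.07, whereas Vegfa fell to 53.7 ± 1.43 CPM in M2, against 96.6 ± 4.68 CPM in M0 (−0.85), and Bmp2 by 1.53.

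Macrophages given IL-4 can fuse into giant cells, and 13 of 21 fusion and adhesion genes rose and 3 fell (median log2 change 0.47). Ocstamp, needed for fusion of osteoclasts, had 5.09, 5.35, 4.98 and 5.40 CPM in M2 and 0.0965, 0.0981, 0.0966 and 0.124 CPM in M0 (5.55, SE 0.30). Cdh1, the cell adhesion protein E-cadherin, averaged 13.4 ± 1.58 CPM in M2 and 0.199 ± 0.0516 CPM in M0 (6.04), and Cd44, a hyaluronan receptor, 569 ± 11.5 CPM in M2 and 291 ± 9.0 CPM in M0 (0.97). Icam1 fell to 19.7 ± 1.19 CPM in M2, against 41.9 ± 0.747 CPM in M0 (−1.09).

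**Figure D4:**
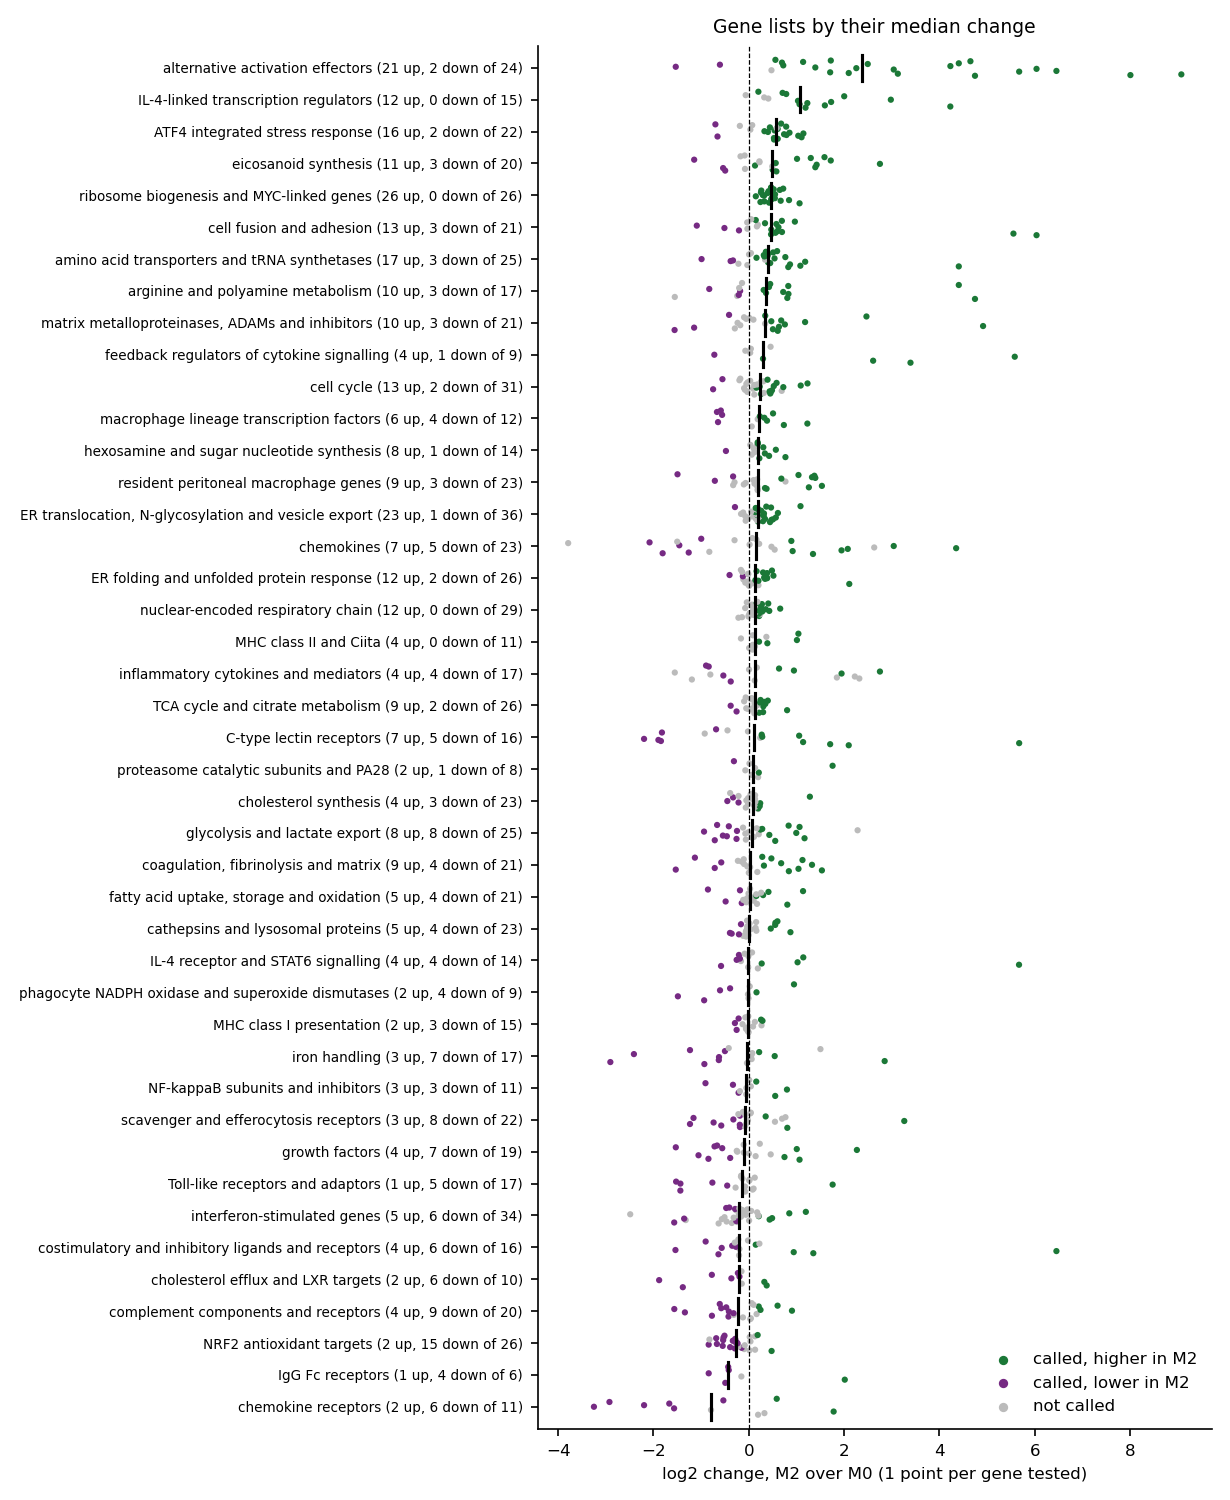
Log2 changes (horizontal axis, M2 over M0) of the tested genes of each list, 1 row a list, ordered by the list's median; small points are genes, the bar is the median, and the vertical line is the median of all 14692 genes. The effectors of alternative activation lie highest (median 2.38) and the chemokine receptors lowest (median −0.79). Lists were chosen with earlier results of these data known, so their order is no test.

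The largest falls included receptors and sensors of inflammation. Sema4d (chr13:51685529-51793747), a membrane semaphorin, had 116, 113, 118 and 125 CPM in M2 and 581, 577, 534 and 627 CPM in M0 (log2 change −2.30, SE 0.05, adjusted p = 2.62e-22). Cd24a (chr10:43578284-43584265), a sialoprotein that dampens responses to danger signals, had 17.2, 17.9, 15.8 and 19.1 CPM in M2 and 98.0, 98.5, 98.8 and 84.1 CPM in M0 (−2.44, SE 0.08). Adra1a (chr14:66635251-66771168), an adrenergic receptor, had 3.21, 3.0, 3.03 and 3.76 CPM in M2 and 20.4, 20.3, 20.1 and 20.5 CPM in M0 (−2.64, SE 0.10). Every M2 library lay several times below every M0 library in these genes. Nlrp3, the inflammasome sensor, averaged 1.91 ± 0.453 CPM in M2 and 8.47 ± 1.09 CPM in M0 (−2.14). The others among the 12 largest falls were Cdo1, Steap4, Ifitm6, Dmpk and Cemip, besides Cxcl5, Clec4d and Cxcr1, with log2 changes of −2.84 to −2.01.

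Inflammatory and interferon genes moved both ways, as all tested genes did. Of 17 inflammatory cytokines and mediators 4 rose and 4 fell (median log2 change 0.13), beside 18.7% and 17.5% of all genes. Il10, an anti-inflammatory cytokine, was at 4.52 ± 0.337 CPM in M2 and 1.16 ± 0.260 CPM in M0 (1.95). Tnf was at 3.87 ± 0.494 CPM in M2 and 5.02 ± 0.526 CPM in M0 (−0.38). Without M2 replicate 1 or M0 replicate 3 only 2 members fell, and Tnf was not called in either case (adjusted p = 0.0842 and 0.0526) or without M0 replicate 2 (0.0641). Of 34 interferon-stimulated genes 5 rose and 6 fell (median −0.20), shares close to the 18.7% and 17.5% of all genes. Oas3, which senses double-stranded RNA, had 10.7, 10.6, 12.3 and 12 CPM in M2 and 26.1, 35.7, 25.8 and 29.2 CPM in M0 (−1.36, SE 0.15), whereas the nucleic acid sensor Zbp1 rose by 1.20. The number that fell was 15 without the filter on low counts, 12 with the M2 and M0 libraries fitted alone and 11 without M1 replicate 2.

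In antigen presentation, 4 of 11 MHC class II genes rose and none fell (median log2 change 0.13), among them their master regulator Ciita at 2.97 ± 0.373 CPM in M2 and 1.43 ± 0.383 CPM in M0 (1.04). Psmb10, an inducible catalytic subunit of the immunoproteasome, which cuts peptides for MHC class I, had 210, 225, 202 and 214 CPM in M2 and 68.3, 63.6, 63.1 and 56.5 CPM in M0 (1.76, SE 0.08). In its list of 8 proteasome catalytic and PA28 subunits 2 rose and 1 fell (median 0.10). Only 1 rose with a filter of 1 CPM or without M2 replicate 1 or 2 or M0 replicate 4. The number that fell was 0 with limma voom or without M2 replicate 1 or 4 or M0 replicate 1 or 2. Of 15 genes of MHC class I presentation 2 rose (1 without M2 replicate 1 or M0 replicate 3) and 3 fell (median −0.02). Over all genes 18.7% rose and 17.5% fell. Cd74, the class II invariant chain, was at 74.9 CPM in M2 and 70.6 CPM in M0 and was not called. B cells carry these genes too, and their part was not tested. Of 16 costimulatory and inhibitory molecules 4 rose and 6 fell (median −0.21). Cd274, which encodes PD-L1, had 353, 322, 347 and 320 CPM in M2 and 171, 176, 180 and 171 CPM in M0 (0.94, SE 0.06), and Cd86 averaged 6.24 ± 0.732 CPM in M2 and 9.72 ± 1.33 CPM in M0 (−0.64). Both ligands of PD-1 were thus higher in M2, and only PD-L1 was well expressed in M0.

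The same contrast was run in cells given ONX-0914, M2 with ONX-0914 against M0 with ONX-0914, which shares no library with the comparison above. There 5974 genes were called (40.7%), 3247 higher (22.1%) and 2727 lower (18.6%). Of the 2744 genes higher in M2 without the inhibitor 1988 (72.4%) were also called higher with it, which is 61.2% of its 3247, and of the 2571 lower genes 1785 (69.4%, and 65.5% of its 2727). The median log2 change of the 529 rises of at least 1 was 1.54 without and 1.29 with ONX-0914, and that of the 401 falls −1.33 and −1.26; the genes were chosen on the values without the inhibitor, a choice that favours those values. In the test of the difference itself, 907 genes (6.17%) had an effect of IL-4 that differed with the inhibitor, but 1590 when only the 16 M2 and M0 libraries were fitted and 1672 without M1 replicate 2.

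**Figure D5:**
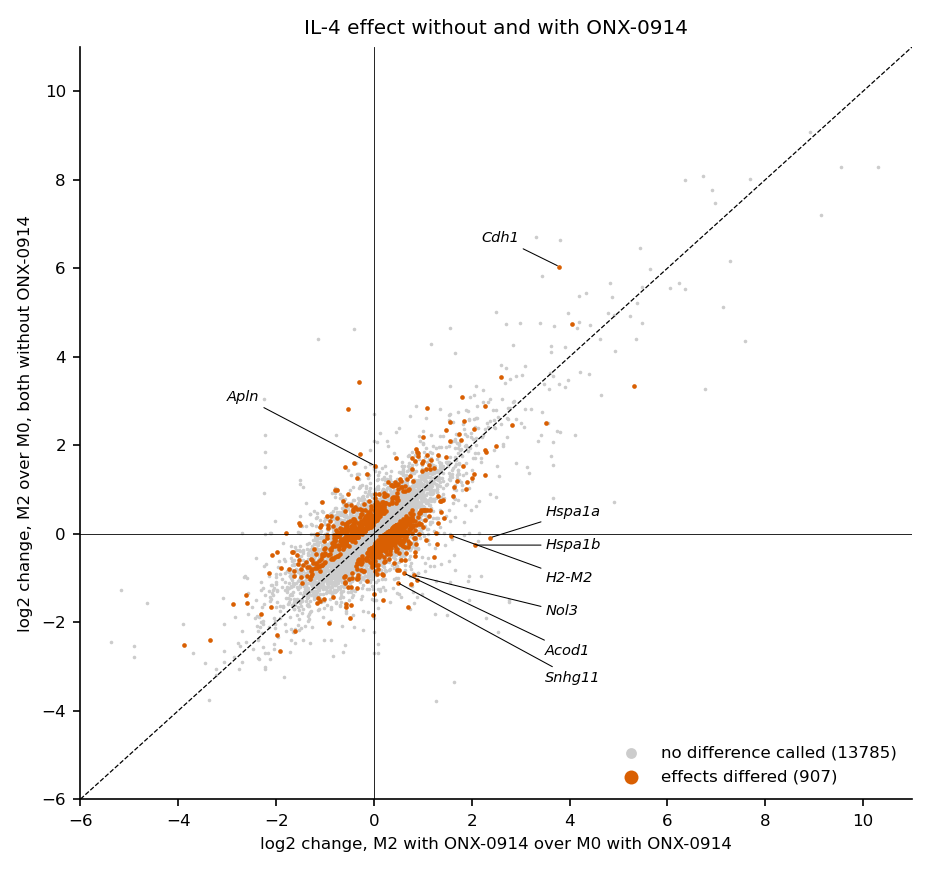
Log2 change M2 over M0 without ONX-0914 (vertical axis) against that with ONX-0914 (horizontal axis) for the tested genes; the diagonal marks equal changes, coloured points are the 907 genes whose IL-4 effect differed in the test of the difference, and the 8 largest such differences among genes with at least 5 CPM in 1 of the 4 groups are named. Most genes lie along the diagonal, and Hspa1a lies far to its right, with a difference of −2.47.

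Among genes with at least 5 CPM in 1 of the 4 groups, the largest differences had several forms. Cdh1 rose to 13.4 CPM in M2, against 0.199 CPM in M0, and with ONX-0914 it had 4.11 CPM in M2 and 0.291 CPM in M0, a difference in log2 change of 2.25 (adjusted p = 0.0038). Apln, which encodes the peptide apelin, had 6.84 CPM in M2 and 2.36 CPM in M0, and with ONX-0914 3.99 CPM in M2 and 3.93 CPM in M0 (difference 1.51, adjusted p = 0.00018). The heat shock gene Hspa1a had 2.46 CPM in M2 and 2.60 CPM in M0, but with ONX-0914 17.6 CPM in M2 and 3.37 CPM in M0 (−2.47, adjusted p = 4.1e-09), and its near copy Hspa1b moved with it (−2.32), so that reads of the pair may be shared. In Acod1, the itaconate enzyme, M2 was lower without the inhibitor (5.90 CPM in M2, 10.9 CPM in M0) and higher with it (7.07 CPM in M2, 4.60 CPM in M0; difference −1.51). The higher mean with ONX-0914 came from replicate 4, at 13.4 CPM against 3.48, 5.98 and 5.41 CPM in the other M2 libraries with ONX-0914 and 4.11 to 5.26 CPM in M0 with ONX-0914, and without it the difference was −1.0 (adjusted p = 0.00427). The difference was called for 34 of the 141 genes described, all listed further below. Among them were the IL-4 effectors Arg1 (0.69) and Tgm2 (0.51), and Myc (0.69), C5ar1 (1.04), Clec4e (−1.40) and Oas3 (−1.35). The same M2 library with ONX-0914 stood highest in Clec4e (93.7 CPM, against 39.3 to 43.9 CPM in the other 3) and in Oas3 (67.6 CPM, against 32.8 to 45.1 CPM), and without it the differences were −1.0 and −1.1, both still called. For Chil3, Irf4 and Tfrc the difference was not called.

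Set beside cells given LPS and IFN-γ (M1), in a test of M2 against M1 that called 9782 genes (66.6%), the genes that rose with IL-4 included some that were higher than in M1 and some that were not. Chil3 was at 1562 CPM in M2 and 6.51 CPM in M1 (log2 difference 7.91), Irf4 at 47.3 CPM in M2 and 1.77 CPM in M1 (4.74), and Fcgr2b at 934 CPM in M2 and 96.8 CPM in M1 (3.27). Other rises were not called higher than in M1. Flt1 was at 32.7 CPM in M2 and 34.2 CPM in M1 (−0.07, adjusted p = 0.6, and a log2 difference of 0.01, adjusted p = 0.944, without M1 replicate 3), Tgm2 at 473 CPM in M2 and 561 CPM in M1 (−0.25, adjusted p = 0.0065, but 0.07 with the M2 and M1 libraries fitted alone), Slc7a2 at 782 CPM in M2 and 2005 CPM in M1 (−1.36), Socs1 at 13.5 CPM in M2 and 44.0 CPM in M1 (−1.70) and Ch25h at 8.01 CPM in M2 and 97.2 CPM in M1 (−3.60). Among the falls, Nlrp3 was at 1.91 CPM in M2 and 273 CPM in M1, and Cdo1 at 0.957 CPM in M2 and 0.721 CPM in M1 (0.42, adjusted p = 0.21). The M1 libraries include replicate 2, with 0.300% of counts on mitochondrial genes against 1.07% to 1.14% in the other M1 libraries. Levels of M2 are common to the comparisons with M0 and M1, so the 2 sets of changes are not independent.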

How the data were processed

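PolyA RNA of peritoneal macrophages was sequenced as read pairs. The authors deposited raw counts per Ensembl gene for 54532 features in 24 libraries, with no normalization. Per the submitters' processing notes, FastQC 0.11.9, cutadapt 2.8, Bowtie2 2.2.5, Picard and build mm10 were used; the counting tool, its strand setting and its treatment of reads that fit several genes are given by no source used here, so near copies and antisense pairs are uncertain. Library totals ran from 18230924 to 22882972 counts. Symbols and positions came from GENCODE M21 (GRCm38) for 54495 features, and those without a symbol held 0.00253% of the counts.

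From the deposited counts, CPM were computed with TMM scaling, and M2 was tested against M0 with edgeR 4.0.16 (R 4.3.3): filterByExpr, 1 mean per group over all 24 libraries, 18 residual degrees of freedom, no replicate block, quasi-likelihood F test, Benjamini-Hochberg adjustment over the 14692 genes tested (99.9% of the counts), called under 0.05. Standard errors are the log2 change over the square root of F. M2 with ONX-0914 against M0 with ONX-0914, the difference of the IL-4 effects, and M2 against M1 came from the same fit. Marker sums and shares were compared by exact permutation, two-sided. A group with no count was given 3 counts (95% level) as a floor, and ratios with 1 to 3 counts have exact 95% counting intervals; both cover counting error only. In simulated data with 14523 genes, 14 of 49 genes changed 1.25-fold and 34 of 50 changed 1.5-fold were called. Of those changed 2-fold 41 of 50 were called, and of those changed 4-fold 45 of 50. Unchanged genes made 3 of the 137 called. Far fewer genes were changed in the simulation than were called in the data, so this share of false calls does not carry over.

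Genes are named by rule: among called genes, the 12 that rose most and the 12 that fell most, with at least 5 CPM in the higher group and no overlap between groups; tested members of 12 short lists, and up to 4 called members of each longer list with the largest change and at least 1 CPM; genes with no count in 1 group and at least 1 CPM in the other; and, with at least 5 CPM in 1 of the 4 groups, the 8 largest called differences with ONX-0914. Only part of those are described. Genes outside the rule (marker genes, and Ccl2, Ccl3, Ccl7, Ccrl2, Cd74, Hpgds, Mmp12, Pdk1, Tbxas1, Tlr13, Tnf and Vegfa) were picked after their values were seen. The members and lists were chosen with earlier results of these data known, and no p-value was adjusted over a list alone. Promoter windows came from RefSeq (GRCm38.p6).

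Within the M2 group and within the M0 group, no 2 libraries agreed within sampling noise (chi-square per degree of freedom 3.06 to 9.31). Other pairs of libraries were not checked. Replicate numbers are shared between groups, but the deviations of same-numbered M2 and M0 libraries correlated at only −0.0518 to 0.0297, so the samples were not treated as pairs. Alternatives were DESeq2 1.42.0 (size factors, Wald test), limma 3.58.1 voom, testing every gene with a count, testing those at 1 CPM or more in 4 libraries, fitting only the compared libraries, a block for the replicate number, glmTreat against a log2 change of 1, CPM by library total for marker sums, and leaving out libraries. Leaving out the ONX-0914 libraries, and M1 replicates 1, 3 and 4, was added after the data were seen.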

Additional observations from a re-analysis of the deposited data

Results flagged for a closer look

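Values of single libraries were compared within groups of 4, and a library was singled out where its gap to the nearest other passed Dixon's 95% value as a share of the group's range. Chance singles out about 1 in 20 groups; here 22 values stood out among 304 groups tested. M0 replicate 1 was lowest in Stat6 (212 CPM), Maf (66.7 CPM) and Tlr9 (6.46 CPM) and highest in Clec4d (379 CPM) and in the summed macrophage markers (14948 CPM). M0 replicate 3 was highest in Nop58 (26.5 CPM) and Smox (18.2 CPM). M0 replicate 4 was lowest in Cd24a (84.1 CPM) and, near 0, highest in Il31ra (0.0828 CPM) and Ocstamp (0.124 CPM). Among M2 libraries, replicate 1 was highest in Cdo1 (1.42 CPM). Replicate 2 was highest in Ccl9 (133 CPM), Gas6 (30.0 CPM) and Steap4 (3.60 CPM) and lowest in Mylip (2.50 CPM). Replicate 3 was highest in Irf8 (128 CPM) and Slc7a5 (41.2 CPM) and lowest in Ccl22 (2.64 CPM), which was called once it was left out. Replicate 4 was highest in Bmp2 (2.89 CPM) and Cd86 (7.33 CPM). In Nos2 the only count of M2 lay in replicate 1 (0.0459 CPM), and M0 replicate 4 was lowest (0.0414 CPM).

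For 34 of the 141 genes described, the change with IL-4 differed between cells without and with ONX-0914 in edgeR's test of that difference. Among all tested genes 6.17% did, but the genes described were chosen, many of them for large changes, so nothing is read from the 2 shares. The values are the log2 change without ONX-0914 minus that with it. Rises were larger without the inhibitor for Cdh1 (2.25), Apln (1.51), Cfp (0.80), Arg1 (0.69), Myc (0.69), Tbxas1 (0.55), Tgm2 (0.51), Igf1 (0.51), Itgam (0.47), Ptgs1 (0.44), Cd44 (0.38), Odc1 (0.37) and Idh3a (0.36). Rises were smaller without it for Zbp1 (−0.50) and F10 (−0.29). Falls were larger without it for Clec4e (−1.40), Oas3 (−1.35), Cemip (−1.09), Adra1a (−0.73), Clec4d (−0.59), Tlr2 (−0.59), Icam1 (−0.49), Ncf1 (−0.47), Cd14 (−0.42), Ccrl2 (−0.40) and Sema4d (−0.31). Falls were smaller without it for Fcgr1 (1.08), C5ar1 (1.04), Steap4 (0.95) and Pdk1 (0.57), and for Fcgr3 (0.45), which was not called without it. Hspa1a (−2.47), Hspa1b (−2.32) and Acod1 (−1.51) were lower in M2 than in M0 without the inhibitor, the first pair not called, and higher with it, in Acod1 through M2 with ONX-0914 replicate 4.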

How the results depend on the processing

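The counts of called genes held within 1.5 times of the reported ones under the other normalizations, tests and filters, apart from those given here. Tested against a minimum log2 change of 1 (edgeR's glmTreat), 352 genes were called between M2 and M0, 248 higher and 104 lower in M2, in place of 930 that were called and reached that change. The number whose IL-4 effect differed with ONX-0914 was 1590 with the libraries of that comparison alone. Leaving out single libraries gave 4739 to 6348 called genes between M2 and M0 (2293 to 3325 higher, 2276 to 3023 lower, 918 to 989 with a log2 change of at least 1), 5367 to 7021 with ONX-0914, 660 to 1672 for the difference of the effects and 9485 to 9991 between M2 and M1; each highest value came without M1 replicate 2. With the replicate number as a block, 5364 genes were called between M2 and M0, and Gata6 was called (adjusted p = 0.037). Only 1 of 4 M2 libraries correlated best with its own number in M0. The labels do not say whether libraries of the same number share a pool of mice, and such correlations cannot exclude it. Of 141 genes described, 9 changed their call between M2 and M0 under some alternative (Gata6, Il4ra, Irs1, Ccl22, Fcgr1, Fcgr3, Ncf4, Tnf and Hspa1b), and 20 of 86 counts of list members moved by over 1.5 times. Flt1 in M2 against M1 ran from −0.14 to 0.00997 over the libraries left out and was called in none. The share of higher genes among those called was 51.6%, and 44.5% with a filter of 1 CPM. The causes were not tested. Below about 1 CPM counting error limits the values.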

Other observations

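Gapdh, a glycolytic enzyme often used as a constant reference, had 4.13, 2.85, 99.5 and 4.68 CPM in M2 and 5.74, 6.28, 4.88 and 6.17 CPM in M0 and was not called (adjusted p = 0.179). M2 replicate 3 stood far above the other libraries. The gene has many processed copies in the mouse genome, and how reads shared with them were counted is not given in the sources used here.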
